A study of Mus musculus with 24 samples.

Results

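The carriers that bring sugars, amino acids, lactate, vitamins and iodide into cells were followed through sorted cells of mouse mammary tumours and normal mammary glands. Members were taken by gene name alone, as all genes of the solute carrier families Slc1a, Slc2a, Slc5a, Slc6a, Slc7a, Slc16a, Slc38a and Slc43a. This gave 87 genes, read by 175 of the 34945 probe sets with 1 gene name. A gene was tested if a probe set of it lay over 2.83 in 3 or more of the 24 arrays, a limit set at the 40th percentile of the values. Of the 87 members 62 passed, among 13485 tested genes of 18193 in all. The band at or under 2.83 is called the low band, because background removal leaves little signal there.

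Gene expression was measured on 24 Affymetrix arrays. The tumours were 5 mammary adenocarcinomas (A to E) of C57BL6/J mice of genotype Apc+/1572T, which carry 1 shortened allele of Apc, a brake on Wnt signalling, and the normal samples were 3 pools (F to H) of mammary glands of C57BL6/J Apc+/+ mice. From each, 10000 cells were sorted of 3 populations: Lin- cells, depleted of cells with lineage markers, and within them the CD29+CD24+ gate and the CD29hiCD24+ gate, which the study uses for stem cells. The ages of the mice and the number of glands in a pool are not known here, and 2 arrays whose titles carry no letter were taken as pool H by elimination. The Apc allele is carried by the whole animal, so cells other than tumour cells carry it too. The arrays of a tumour group are from separate tumours, and p-values measure the spread between these samples. The populations of 1 tumour or pool entered the main fit as independent, although arrays of 1 tumour deviated together (median r of 0.578).

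Animal cells take up glucose through the facilitative Slc2a carriers or, against a gradient, through the sodium-coupled Slc5a carriers, and exchange lactate with protons through Slc16a carriers. Amino acids enter through carriers driven by sodium, among them Slc1a, Slc6a and Slc38a members, or are exchanged by Slc7a members that need the glycoprotein Slc3a2 as a partner. The lactating mammary gland is known for strong uptake of glucose, amino acids and iodide, and many tumours for raised uptake of glucose and glutamine.

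All values are log2 signals as deposited, and 1 unit between samples is 2-fold. A value after ± is the standard error of a difference, or the standard deviation of a group where SD is written. A gene was called at an adjusted p under 0.05 in limma with Benjamini-Hochberg adjustment over the 13485 genes. Probe sets differ in brightness, so levels are compared between samples and not between genes. In bulk RNA fewer cells of a type and less RNA per cell cannot be told apart.

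Array medians ran from 3.26 to 3.41. The mean of 10 basal markers was 12.84 to 13.09 in normal CD29hiCD24+ arrays, 3.01 to 3.28 in normal CD29+CD24+ arrays, 9.50 to 11.07 in tumour CD29hiCD24+ arrays and 8.72 to 9.17 in tumour CD29+CD24+ arrays. The mean of 10 luminal markers was 12.42 to 12.58 in normal CD29+CD24+ arrays and 8.18 to 11.06 in the same tumour gate. In CD29hiCD24+ arrays the luminal mean was 8.13, 10.19 and 10.53 in pools F to H and 6.91 to 8.21 in tumours. The normal CD29hiCD24+ array of pool F stood apart, with 9 endothelial markers at a mean of 9.52 where pools G and H had 6.71 and 7.52, and leukocyte markers at 7.86 where these had 3.06 and 3.13. The actin probe sets differed more between the 3' and 5' ends, as shortened RNA does, in normal CD29hiCD24+ arrays (2.53 ± 0.35, SD, n = 3) than in normal CD29+CD24+ arrays (1.61 ± 0.21, SD, n = 3). The Gapdh probe sets did not, at 2.10 ± 0.29 and 2.24 ± 0.035 (SD, n = 3) in the same order. The part of cell mixture and of RNA shortening in the results below was not tested, and values without the pool F array stand beside those it moves.

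Of the 87 members, 26 had a group mean over 8 in at least 1 of the 6 groups, and 39 had every group mean under 4. The glucose carrier Slc2a1, the inositol carrier Slc5a3 and the neutral amino acid carrier Slc38a2 were over 10 in all 24 arrays. The members that did not pass the filter were 25, and 23 of them lay in the low band in all 24 arrays, among them the liver glucose carrier Slc2a2, the glial glutamate carrier Slc1a2, the dopamine carrier Slc6a3 and the glutamine carriers Slc38a3 and Slc38a5. Slc43a1, a carrier of branched-chain amino acids, was there as well, with group means from 2.06 ± 0.0052 (SD, n = 3) in normal CD29+CD24+ to 2.15 ± 0.07 (SD, n = 3) in normal CD29hiCD24+ cells. The other two, Slc2a5 and Slc16a14, passed the band in fewer than 3 arrays.

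**Figure D1:**
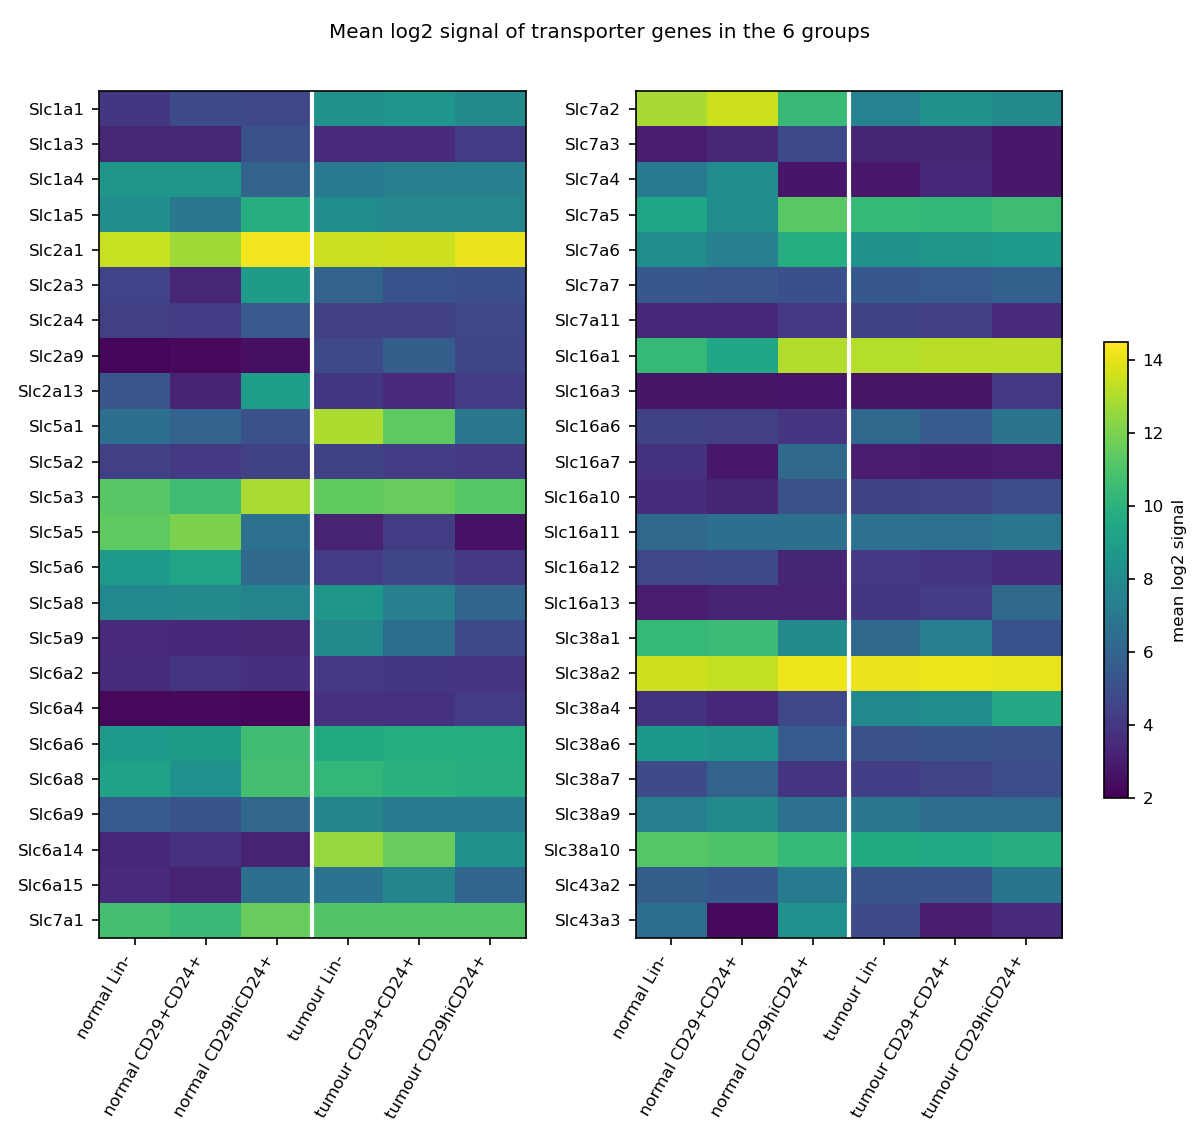
Mean log2 signal (colour) of the 48 members with a group mean over 4, in rows by family, in the 6 groups in columns (5 tumours or 3 normal pools each). Slc2a1 and Slc38a2 were bright in every column, Slc6a14 and Slc5a1 were bright in tumour Lin- and CD29+CD24+ cells, and Slc5a5 and Slc7a2 in normal Lin- and CD29+CD24+ cells.

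The study set out to compare the CD29hiCD24+ cells of tumours with those of normal glands. In this gate 33 of the 62 members were called, 15 higher and 18 lower in tumours, beside 38.6% of all genes (15.6% higher and 22.9% lower) tested. The share of members was 53.2%. The median member differed by -0.02, and the median of all genes by -0.01. Groups did not overlap for 29 members, beside 37.0% of all genes. After quantile normalisation 19 members were called higher and 15 lower, so the higher share moved from 45.5% to 55.9%, and 0 called members changed sign. Over all genes called, the higher share moved likewise, from 40.5% to 53.6%. In CD29+CD24+ cells 30 members were called, 19 higher and 11 lower, beside 43.5% of all genes (16.4% higher and 27.1% lower), and 32 did not overlap, beside 44.8%. In Lin- cells 28 were called, 17 higher and 11 lower, beside 40.6% (13.9% higher and 26.6% lower), and 26 did not overlap, beside 38.7%.

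Called higher in tumours in all 3 populations were 7 members: the glutamate and cysteine carrier Slc1a1, the urate carrier Slc2a9, the mannose and fructose carrier Slc5a9, the serotonin carrier Slc6a4, the glycine carrier Slc6a9, the broad amino acid carrier Slc6a14 and the neutral amino acid carrier Slc38a4. Among these, Slc2a9 and Slc6a4 passed the filter through tumour arrays alone. Called lower in all 3 were 4 members: the iodide carrier Slc5a5, the vitamin carrier Slc5a6, the arginine and lysine carrier Slc7a2 and the glutamine carrier Slc38a1. Of the 62 members, 17 were called in both sorted gates, 13 in CD29+CD24+ cells alone, 16 in CD29hiCD24+ cells alone and 16 in neither. In both gates, but with opposite sign, were 6 members: Slc1a4, Slc2a3, Slc6a6, Slc6a8, Slc7a6 and Slc38a7. Called in no comparison of the study were 14 tested members, among them the cystine carrier Slc7a11 and the kidney glucose carrier Slc5a2. Of all genes tested, 38.6% were called in CD29hiCD24+, 43.5% in CD29+CD24+ and 40.6% in Lin- cells, each comparison taken alone. Joint patterns over several comparisons were counted for members only. These member counts therefore have no background share, and whether they differ from those of other genes was not tested.

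Some of these calls depended on the setting. Numbers in the sample descriptions fall into ranges, and with the ranges as a block the comparison of tumour and normal rests on tumour E, whose numbers alone fall among those of the pools. This block ended the calls of Slc6a4 in all 3 populations. It also ended those of Slc1a3, Slc2a4, Slc2a12 and Slc16a3 in CD29hiCD24+ cells, of Slc2a3, Slc6a6, Slc7a1, Slc16a5 and Slc16a10 in CD29+CD24+ cells, and of Slc6a6, Slc6a8, Slc16a5, Slc16a7, Slc16a11 and Slc38a2 in Lin- cells. Other calls arose only with this block, those of Slc5a10 and Slc6a17 in all 3 populations among them. So did those of Slc5a1, Slc6a19 and Slc7a13 in CD29hiCD24+, Slc16a6 in CD29+CD24+, and Slc1a5, Slc6a19 and Slc43a3 in Lin- cells. Without it Slc5a10, Slc6a17, Slc6a19 and Slc7a13 were called in no comparison. The mean of a gene's probe sets ended the calls of Slc1a4, Slc5a3, Slc5a9, Slc6a6 and Slc6a8 in CD29hiCD24+ cells, of Slc2a3 in CD29+CD24+ cells and of Slc38a2 in Lin- cells. With a covariate for the 3' to 5' difference of actin, the calls of Slc2a4, Slc2a8, Slc2a12, Slc5a8, Slc6a8 and Slc6a9 in CD29hiCD24+ cells and of Slc2a3, Slc7a1, Slc16a5 and Slc16a10 in CD29+CD24+ cells were lost. Of the 6 members with opposite signs, Slc1a4, Slc2a3, Slc6a6 and Slc6a8 each lost a call in at least 1 of these settings.

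**Figure D2:**
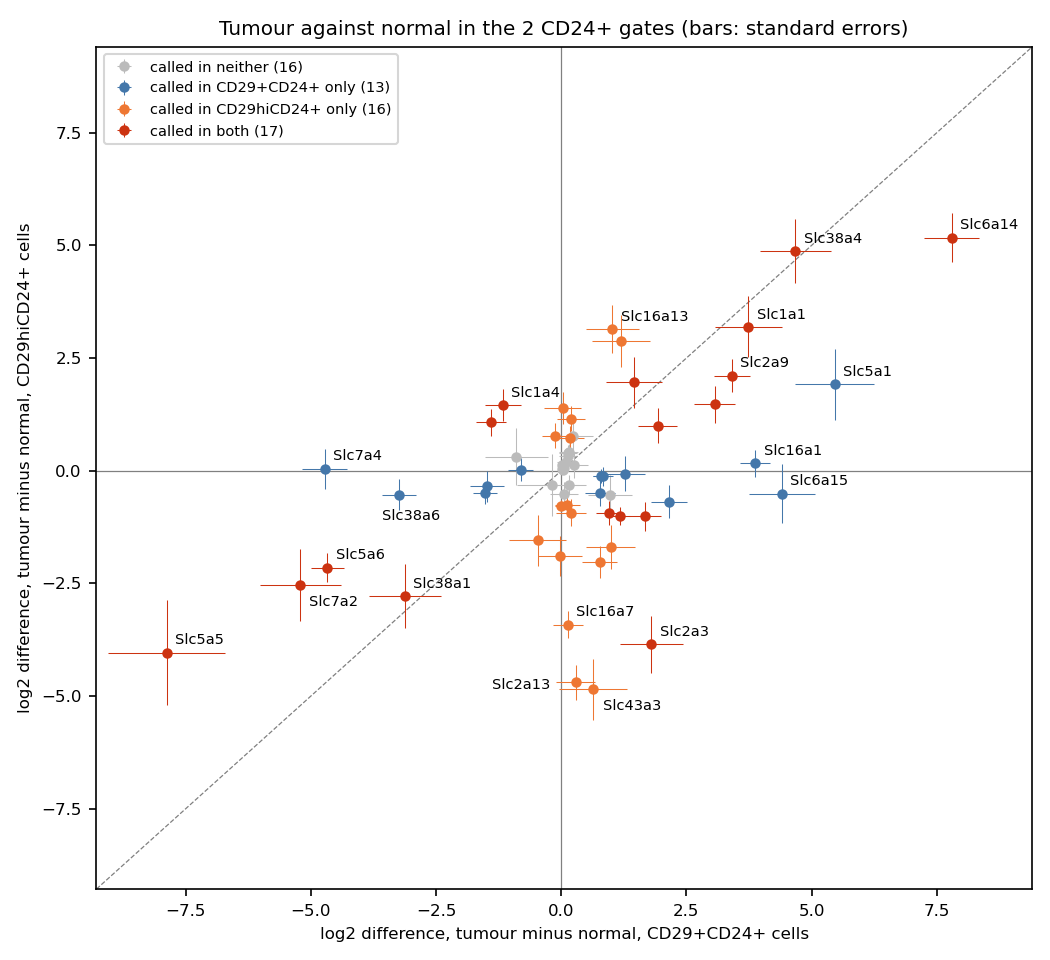
Log2 difference of tumour (n = 5) minus normal (n = 3) in CD29+CD24+ cells (horizontal) and in CD29hiCD24+ cells (vertical) for the 62 tested members, with standard errors as bars and colours for the calls. Slc6a14 lay farthest to the upper right at 7.80 and 5.17, Slc5a5 at the lower left at -7.88 and -4.04, and Slc43a3 and Slc2a13 lay low on the vertical axis near 0 to 1 on the horizontal axis.

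The region upstream of the start site is shown for 5 members with large tumour or gate differences, chosen after their values were seen, so that letters known as binding cores can be seen in place. Sequences are from RefSeq on GRCm38.p6, 250 bases up to the start site, plus strand, 5′ to 3′. Capitals mark ACGTG, the core bound by hypoxia-inducible factors, or its reverse complement CACGT, which together spell CACGTG, the E-box bound by Myc and related factors, where they overlap. Slc2a1 is at chr4:119108495-119108744, Slc16a3 at chr11:120948817-120949066, Slc16a1 at chr3:104638414-104638663, Slc5a1 at chr5:33103969-33104218 and Slc6a14 at chrX:21714650-21714899.
Slc2a1: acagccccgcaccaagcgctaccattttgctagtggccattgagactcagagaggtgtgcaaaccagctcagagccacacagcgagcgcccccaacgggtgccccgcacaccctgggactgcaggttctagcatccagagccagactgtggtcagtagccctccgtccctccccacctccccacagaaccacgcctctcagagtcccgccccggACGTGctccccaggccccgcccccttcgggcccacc
Slc16a3: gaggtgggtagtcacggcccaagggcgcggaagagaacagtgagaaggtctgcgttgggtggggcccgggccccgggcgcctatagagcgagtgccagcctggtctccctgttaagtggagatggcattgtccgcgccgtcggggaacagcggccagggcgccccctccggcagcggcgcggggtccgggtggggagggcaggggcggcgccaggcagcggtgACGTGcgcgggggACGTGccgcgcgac
Slc16a1: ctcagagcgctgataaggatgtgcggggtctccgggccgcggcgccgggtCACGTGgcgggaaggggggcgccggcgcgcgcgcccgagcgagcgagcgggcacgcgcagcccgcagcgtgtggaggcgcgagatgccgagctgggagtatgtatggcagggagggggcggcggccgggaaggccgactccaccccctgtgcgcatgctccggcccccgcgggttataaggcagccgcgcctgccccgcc
Slc5a1: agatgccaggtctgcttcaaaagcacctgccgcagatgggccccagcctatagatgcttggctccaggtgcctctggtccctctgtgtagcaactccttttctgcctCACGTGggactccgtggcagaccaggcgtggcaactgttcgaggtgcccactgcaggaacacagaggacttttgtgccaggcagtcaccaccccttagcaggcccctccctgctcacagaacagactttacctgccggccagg
Slc6a14: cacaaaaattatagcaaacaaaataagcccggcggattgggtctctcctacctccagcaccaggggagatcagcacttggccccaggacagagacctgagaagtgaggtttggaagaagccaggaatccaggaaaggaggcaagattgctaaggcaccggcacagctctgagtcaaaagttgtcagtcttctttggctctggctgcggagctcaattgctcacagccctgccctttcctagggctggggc
The match of Slc2a1 started 36 bases before the start site. Those of Slc16a3, the lactate exporter induced in low oxygen, started 27 and 14 bases before it. Slc16a1 and Slc5a1 held the palindrome CACGTG, which counts on both strands, 200 and 143 bases before their start sites. Slc6a14 held no match in this window. On either strand, ACGTG was found in 16.6% of 32851 promoters of the same length and in 9 of the 41 tested members with an entry, and CACGTG in 6.02% and in 5 members. ATCAAAG, a core of the Wnt effectors TCF and LEF, was in 3.21% of promoters and in 3 members (Slc7a1, Slc38a9 and Slc38a10), and TGATGNAA, a core of the amino acid stress factor ATF4, in 3.45% and in 2 (Slc7a7 and Slc7a11). The percentages count promoter entries, and the members were counted by gene, where a match in any entry of the gene sufficed. The member counts are therefore not strictly comparable with the percentages. A match is a description of letters and not a site.

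Among the facilitative glucose carriers (Slc2a, 11 members, 8 tested), 3 were higher and 4 lower in tumour CD29hiCD24+ cells, beside 38.6% of all genes. In tumour CD29+CD24+ cells 3 were higher and 0 lower, beside 43.5%. No family was tested against such shares. Slc2a1, or GLUT1, supplies basal glucose to most cells. In Lin- cells Slc2a1 was 13.27, 13.62, 13.73, 13.49 and 13.29 in tumours A to E and 13.17, 13.84 and 13.31 in pools F to H. Slc2a1 in CD29+CD24+ cells was 13.11, 13.44, 14.07, 13.56 and 13.52 in tumours A to E and 13.07, 12.80 and 12.27 in pools F to H. In CD29hiCD24+ cells Slc2a1 was 14.33, 13.79, 14.27, 14.29 and 14.09 in tumours A to E and 14.47, 14.34 and 14.03 in pools F to H. The 3 normal CD29+CD24+ arrays were the lowest of the 24 and lay below every tumour array of that gate, while tumour and normal overlapped in the other populations. Its tumour difference was 0.83 ± 0.21 (adjusted p = 0.00236) in CD29+CD24+ cells, against -0.12 ± 0.21 (adjusted p = 0.678) in CD29hiCD24+ cells and 0.041 ± 0.21 (adjusted p = 0.893) in Lin- cells, which were not called.

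Slc2a3, or GLUT3, is a high-affinity glucose carrier best known from neurons. Slc2a3 in CD29hiCD24+ cells was 4.64, 5.42, 4.63, 6.50 and 4.13 in tumours A to E and 9.72, 8.17 and 8.84 in pools F to H. Slc2a3 in CD29+CD24+ cells was 5.45, 4.90, 5.23, 6.05 and 4.09 in tumours A to E and 4.47, 3.31 and 2.27 in pools F to H. Slc2a3 in Lin- cells was 6.59, 6.79, 6.0, 6.41 and 4.04 in tumours A to E and 3.98, 5.11 and 4.40 in pools F to H. The 3 normal CD29hiCD24+ arrays were the highest of all, with no overlap with the tumours, and tumour E was the lowest tumour in each population. The difference was -3.85 ± 0.63 (adjusted p = 5.82e-05) in CD29hiCD24+ cells and 1.80 ± 0.63 (adjusted p = 0.0252) in CD29+CD24+ cells, where the arrays overlapped. Without pool H the second was not called (1.26, adjusted p = 0.208), nor without A (1.72, adjusted p = 0.0522), C (1.78, adjusted p = 0.0542) or G (1.78, adjusted p = 0.0696). It was also not called with the mean of probe sets (1.19, adjusted p = 0.0859), the block of description numbers (0.49, adjusted p = 0.557) or the actin covariate (1.35, adjusted p = 0.102), and the other probe set of Slc2a3 gave 0.59 (adjusted p = 0.401). In CD29hiCD24+ cells the call held under all 17 settings.

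Slc2a13 carries inositol with protons. Slc2a13 in CD29hiCD24+ cells was 3.90, 3.86, 4.98, 4.75 and 3.76 in tumours A to E and 9.22, 8.36 and 9.24 in pools F to H. Slc2a13 in CD29+CD24+ cells was 3.34, 3.57, 3.33, 3.59 and 3.59 in tumours A to E and 3.29, 2.75 and 3.55 in pools F to H. Slc2a13 in Lin- cells was 3.76, 3.56, 5.32, 3.46 and 4.05 in tumours A to E and 4.80, 6.11 and 5.10 in pools F to H. The normal CD29hiCD24+ arrays lay over 3 units above every tumour array of the gate, and in CD29+CD24+ cells tumour and normal overlapped. The difference was -4.69 ± 0.39 (adjusted p = 8.76e-09) in CD29hiCD24+ cells and -1.31 ± 0.39 (adjusted p = 0.01) in Lin- cells, and the call in Lin- cells was lost without pool G (-0.92, adjusted p = 0.083). The endothelial marker mean was 7.92 ± 1.45 (SD, n = 3) in normal and 3.49 ± 0.36 (SD, n = 5) in tumour CD29hiCD24+ cells, with 8 of 9 markers called lower in tumours, and its part in Slc2a3 and Slc2a13 was not tested. Without the normal array of pool F, where that mean was highest, Slc2a3 differed by -3.44 and Slc2a13 at -4.55.

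Slc2a9, which carries urate, went the other way. Slc2a9 in CD29+CD24+ cells was 6.08, 5.64, 6.52, 5.26 and 5.04 in tumours A to E and 2.01, 2.28 and 2.59 in pools F to H. In CD29hiCD24+ cells Slc2a9 was 4.43, 5.55, 5.12, 4.04 and 3.99 in tumours A to E and 2.80, 2.18 and 2.59 in pools F to H. In Lin- cells Slc2a9 was 5.03, 4.98, 4.92, 5.05 and 3.88 in tumours A to E and 2.44, 2.12 and 2.0 in pools F to H. Every tumour array lay above every normal array, and the normal arrays lay in the low band, so the size of the change is a compressed one. Slc2a9 passed the filter through 15 tumour arrays alone. The differences were 3.41 ± 0.36 (adjusted p = 1.39e-07), 2.11 ± 0.36 (adjusted p = 9.54e-05) and 2.58 ± 0.36 (adjusted p = 7.43e-06) in the order given. A second, dimmer probe set of Slc2a9 differed by 0.51 in CD29+CD24+ and by -0.04 in CD29hiCD24+ cells.

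Slc2a4, or GLUT4, is the insulin-responsive carrier of muscle and fat. Slc2a4 in CD29hiCD24+ cells was 4.32, 5.0, 4.36, 4.37 and 5.58 in tumours A to E and 5.22, 6.15 and 5.09 in pools F to H. Slc2a4 in CD29+CD24+ cells was 4.38, 4.28, 4.27, 4.52 and 4.31 in tumours A to E and 4.32, 4.13 and 4.24 in pools F to H. Slc2a4 in Lin- cells was 4.29, 4.38, 4.25, 4.48 and 4.35 in tumours A to E and 4.33, 4.41 and 4.34 in pools F to H. It was higher in normal CD29hiCD24+ cells than in the other normal populations, tumour E overlapped with the pools, and the difference of -0.76 ± 0.24 (adjusted p = 0.0174) was lost without G (-0.43, adjusted p = 0.212), A (-0.66, adjusted p = 0.0565), C (-0.67, adjusted p = 0.0571) or D (-0.67, adjusted p = 0.0508).

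The sodium-coupled carriers (Slc5a, 11 members, 9 tested) held the largest member differences of both directions in the comparisons of CD29+CD24+ and Lin- cells apart from Slc6a14. In CD29+CD24+ cells 2 were higher and 2 lower in tumours, beside 43.5% of all genes. In CD29hiCD24+ cells 1 was higher and 4 lower, beside 38.6%. Slc5a1, or SGLT1, takes up glucose with sodium in the gut. In Lin- cells Slc5a1 was 11.29, 12.51, 14.05, 12.79 and 14.06 in tumours A to E and 6.53, 7.09 and 6.13 in pools F to H. Slc5a1 in CD29+CD24+ cells was 10.75, 10.22, 13.00, 10.46 and 12.57 in tumours A to E and 5.55, 6.44 and 5.84 in pools F to H. In CD29hiCD24+ cells Slc5a1 was 6.75, 5.44, 6.77, 6.76 and 9.39 in tumours A to E and 4.10, 6.13 and 5.10 in pools F to H. Tumour arrays were over 3 units above normal arrays in the first and second of these populations, and in CD29hiCD24+ cells tumour B overlapped with pool G. The difference was 6.36 ± 0.78 (adjusted p = 1.5e-06) in Lin- cells, 5.46 ± 0.78 (adjusted p = 8.06e-06) in CD29+CD24+ cells and 1.91 ± 0.78 (adjusted p = 0.0593) in CD29hiCD24+ cells, where it was not called but passed with tumour or pool as a random block (1.91, adjusted p = 0.0369) and with the block of description numbers (3.47, adjusted p = 0.000396).

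Slc5a9, or SGLT4, carries mannose and fructose and showed a like order. In Lin- cells Slc5a9 was 7.62, 7.78, 7.81, 7.80 and 8.48 in tumours A to E and 3.30, 3.32 and 4.01 in pools F to H. Slc5a9 in CD29+CD24+ cells was 8.0, 5.25, 7.08, 5.80 and 6.46 in tumours A to E and 3.35, 3.24 and 3.77 in pools F to H. In CD29hiCD24+ cells Slc5a9 was 5.38, 4.49, 4.89, 4.62 and 4.62 in tumours A to E and 3.43, 3.26 and 3.30 in pools F to H. Every tumour array lay above every normal array of its population, by 4.35 ± 0.41, 3.06 ± 0.41 and 1.47 ± 0.41 on average. The other 3 probe sets of Slc5a9 were dimmer and differed by 0.02 to 0.17 in CD29hiCD24+ cells, where the mean of all 4 was not called (0.42, adjusted p = 0.369). The mean of 11 squamous keratinocyte markers followed the same order in tumours, 10.30 to 12.27 in Lin-, 8.59 to 11.00 in CD29+CD24+ and 7.47 to 9.19 in CD29hiCD24+ arrays, against 4.01 to 5.43 in the normal arrays. Its part in Slc5a1, Slc5a9 and Slc6a14 was not tested.

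Slc5a5 is the sodium iodide symporter of the thyroid and the lactating breast. In Lin- cells Slc5a5 was 2.44, 6.07, 2.79, 2.5 and 2.45 in tumours A to E and 12.04, 10.20 and 11.96 in pools F to H. Slc5a5 in CD29+CD24+ cells was 3.80, 8.40, 3.37, 2.52 and 2.71 in tumours A to E and 12.66, 11.53 and 11.94 in pools F to H. In CD29hiCD24+ cells Slc5a5 was 2.57, 2.66, 2.83, 2.65 and 2.38 in tumours A to E and 3.48, 8.06 and 8.43 in pools F to H. Most tumour arrays were at or near the low band, tumour B kept a signal in Lin- and CD29+CD24+ cells, and no tumour array reached a normal array of its population. The difference was -7.88 ± 1.17 (adjusted p = 1.17e-05) in CD29+CD24+ cells, -8.15 ± 1.17 (adjusted p = 9.85e-06) in Lin- cells and -4.04 ± 1.17 (adjusted p = 0.00894) in CD29hiCD24+ cells. In the last, pool F was low at 3.48 against 8.06 and 8.43, the call was lost without G (-3.33, adjusted p = 0.0703) or H (-3.15, adjusted p = 0.0918), and without the pool F array the difference was -5.63, adjusted p = 0.000839. The luminal marker mean of these normal arrays was 8.13, 10.19 and 10.53 in pools F to H, and its part was not tested. A dimmer second probe set of Slc5a5 differed by -5.39 in CD29+CD24+, -3.27 in Lin- and -0.11 in CD29hiCD24+ cells.

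Slc5a6 takes up biotin and pantothenate. In Lin- cells Slc5a6 was 4.29, 4.44, 3.98, 4.36 and 4.0 in tumours A to E and 8.97, 8.21 and 9.03 in pools F to H. Slc5a6 in CD29+CD24+ cells was 5.82, 4.80, 3.88, 4.46 and 4.16 in tumours A to E and 9.59, 8.94 and 9.35 in pools F to H. In CD29hiCD24+ cells Slc5a6 was 4.36, 4.20, 4.12, 3.98 and 4.03 in tumours A to E and 5.77, 6.80 and 6.29 in pools F to H. Tumours and pools did not overlap in any of the 3 populations, and the normal CD29hiCD24+ arrays lay below the other normal arrays. The differences were -4.52 ± 0.33 (adjusted p = 9.69e-10), -4.67 ± 0.33 (adjusted p = 3.23e-10) and -2.15 ± 0.33 (adjusted p = 3e-05).

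Slc5a3 takes up inositol as an osmolyte, and Slc5a8 takes up lactate and other monocarboxylates with sodium. Slc5a3 in CD29hiCD24+ cells was 11.06, 11.50, 10.81, 12.73 and 10.04 in tumours A to E and 13.25, 12.65 and 12.83 in pools F to H. Slc5a3 in CD29+CD24+ cells was 12.13, 11.60, 10.91, 12.56 and 10.88 in tumours A to E and 10.74, 10.85 and 10.30 in pools F to H. Slc5a3 in Lin- cells was 11.62, 11.44, 11.07, 12.66 and 10.54 in tumours A to E and 11.37, 11.42 and 10.96 in pools F to H. The normal CD29hiCD24+ arrays were high, tumour D reached 12.73 among pools of 12.65 to 13.25, and the difference there was -1.69 ± 0.49 (adjusted p = 0.00935), lost without pool F (-1.51, adjusted p = 0.0644). Slc5a8 in CD29hiCD24+ cells was 6.95, 5.25, 6.41, 6.12 and 5.64 in tumours A to E and 7.48, 7.19 and 8.19 in pools F to H. Slc5a8 in CD29+CD24+ cells was 9.70, 7.02, 7.69, 6.73 and 6.01 in tumours A to E and 7.98, 8.32 and 7.39 in pools F to H. Slc5a8 in Lin- cells was 8.46, 8.51, 9.40, 8.15 and 8.46 in tumours A to E and 7.77, 8.39 and 7.38 in pools F to H. Tumours were below the pools in CD29hiCD24+ cells and overlapped with them elsewhere. The difference was -1.55 ± 0.57 (adjusted p = 0.0365) and was lost without B (-1.34, adjusted p = 0.105), D (-1.56, adjusted p = 0.0551), E (-1.44, adjusted p = 0.0597), F (-1.61, adjusted p = 0.0923), G (-1.76, adjusted p = 0.0541) or H (-1.26, adjusted p = 0.17), and without the pool F array (-1.61, adjusted p = 0.0707).

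Of the monocarboxylate carriers (Slc16a, 13 members, 12 tested), 4 were higher and 1 lower in tumour CD29hiCD24+ cells, beside 38.6% of all genes. In tumour CD29+CD24+ cells 2 were higher and 1 lower, beside 43.5%. Slc16a1, or MCT1, moves lactate, pyruvate and ketone bodies across the cell membrane. In Lin- cells Slc16a1 was 12.88, 13.30, 13.00, 13.36 and 13.10 in tumours A to E and 10.71, 9.77 and 10.66 in pools F to H. Slc16a1 in CD29+CD24+ cells was 13.12, 12.91, 13.14, 13.57 and 13.40 in tumours A to E and 9.69, 9.47 and 8.92 in pools F to H. In CD29hiCD24+ cells Slc16a1 was 13.13, 13.57, 13.38, 13.86 and 12.06 in tumours A to E and 13.22, 12.94 and 12.94 in pools F to H. The tumours and the normal CD29hiCD24+ arrays formed 1 range from 12.06 to 13.86, and the normal CD29+CD24+ and Lin- arrays lay apart below it, from 8.92 to 10.71. The difference was 3.87 ± 0.30 (adjusted p = 9.91e-10), or 14.6-fold, in CD29+CD24+ cells, 2.75 ± 0.30 (adjusted p = 2.41e-07) in Lin- cells and 0.16 ± 0.30 (adjusted p = 0.703) in CD29hiCD24+ cells, which was not called. A second probe set of Slc16a1 lay around the low band, with a mean of 2.76 over the 24 arrays, and differed by 0.10 in CD29+CD24+ cells.

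Slc16a3, or MCT4, exports lactate from glycolytic cells. In CD29hiCD24+ cells Slc16a3 was 5.03, 4.17, 5.31, 2.90 and 3.07 in tumours A to E and 2.72, 2.68 and 2.71 in pools F to H. Slc16a3 in CD29+CD24+ cells was 2.65, 2.63, 2.69, 2.73 and 2.68 in tumours A to E and 2.62, 2.71 and 2.62 in pools F to H. In Lin- cells Slc16a3 was 2.66, 2.71, 2.68, 2.48 and 2.87 in tumours A to E and 2.67, 2.78 and 2.47 in pools F to H. Of the 24 arrays, the CD29hiCD24+ arrays of tumours A, B and C stood out at 4.17 to 5.31, those of D and E were just over the low band, and the rest lay around it. The difference in CD29hiCD24+ cells was 1.39 ± 0.36 (adjusted p = 0.00434), and was lost when only the groups compared were fitted (1.39, adjusted p = 0.0915). Slc16a3 was over the low band in 6 arrays, those of tumour CD29hiCD24+ cells and tumour E in Lin- cells. It passed the filter through the group where it was high, so its calls in that gate are descriptive. Slc16a13, a lactate carrier of the liver, showed a like order. In CD29hiCD24+ cells Slc16a13 was 7.22, 6.14, 6.15, 4.37 and 7.79 in tumours A to E and 3.37, 3.30 and 2.93 in pools F to H. Slc16a13 in CD29+CD24+ cells was 4.09, 4.45, 5.0, 3.64 and 4.20 in tumours A to E and 3.28, 2.97 and 3.51 in pools F to H. In Lin- cells Slc16a13 was 4.58, 5.04, 3.22, 3.57 and 3.57 in tumours A to E and 2.93, 3.28 and 2.79 in pools F to H. The tumours lay above the pools in CD29hiCD24+ and CD29+CD24+ cells, and the difference of 3.13 ± 0.53 (adjusted p = 8.63e-05) was called in CD29hiCD24+ cells and not in CD29+CD24+ cells (1.02 ± 0.53, adjusted p = 0.134).

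Slc16a7, or MCT2, which takes up lactate and pyruvate with high affinity, was near the low band in the tumours. Slc16a7 in CD29hiCD24+ cells was 2.80, 3.01, 3.24, 2.84 and 2.75 in tumours A to E and 6.04, 5.71 and 7.28 in pools F to H. Slc16a7 in Lin- cells was 2.80, 2.90, 3.53, 2.82 and 2.84 in tumours A to E and 3.95, 2.96 and 4.61 in pools F to H. Slc16a7 in CD29+CD24+ cells was 2.77, 2.83, 2.83, 3.19 and 2.94 in tumours A to E and 2.78, 2.75 and 2.82 in pools F to H. The 3 normal CD29hiCD24+ arrays were the highest of the 24, and the difference in that gate was -3.41 ± 0.30 (adjusted p = 2.38e-08). With the pool F array left out it was -3.56. Slc16a6, a carrier of ketone bodies, was higher in tumour CD29hiCD24+ cells by 2.87 ± 0.58 (adjusted p = 0.000479), with tumours at 5.94 to 7.72 and pools at 2.85 to 5.70.

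**Figure D3:**
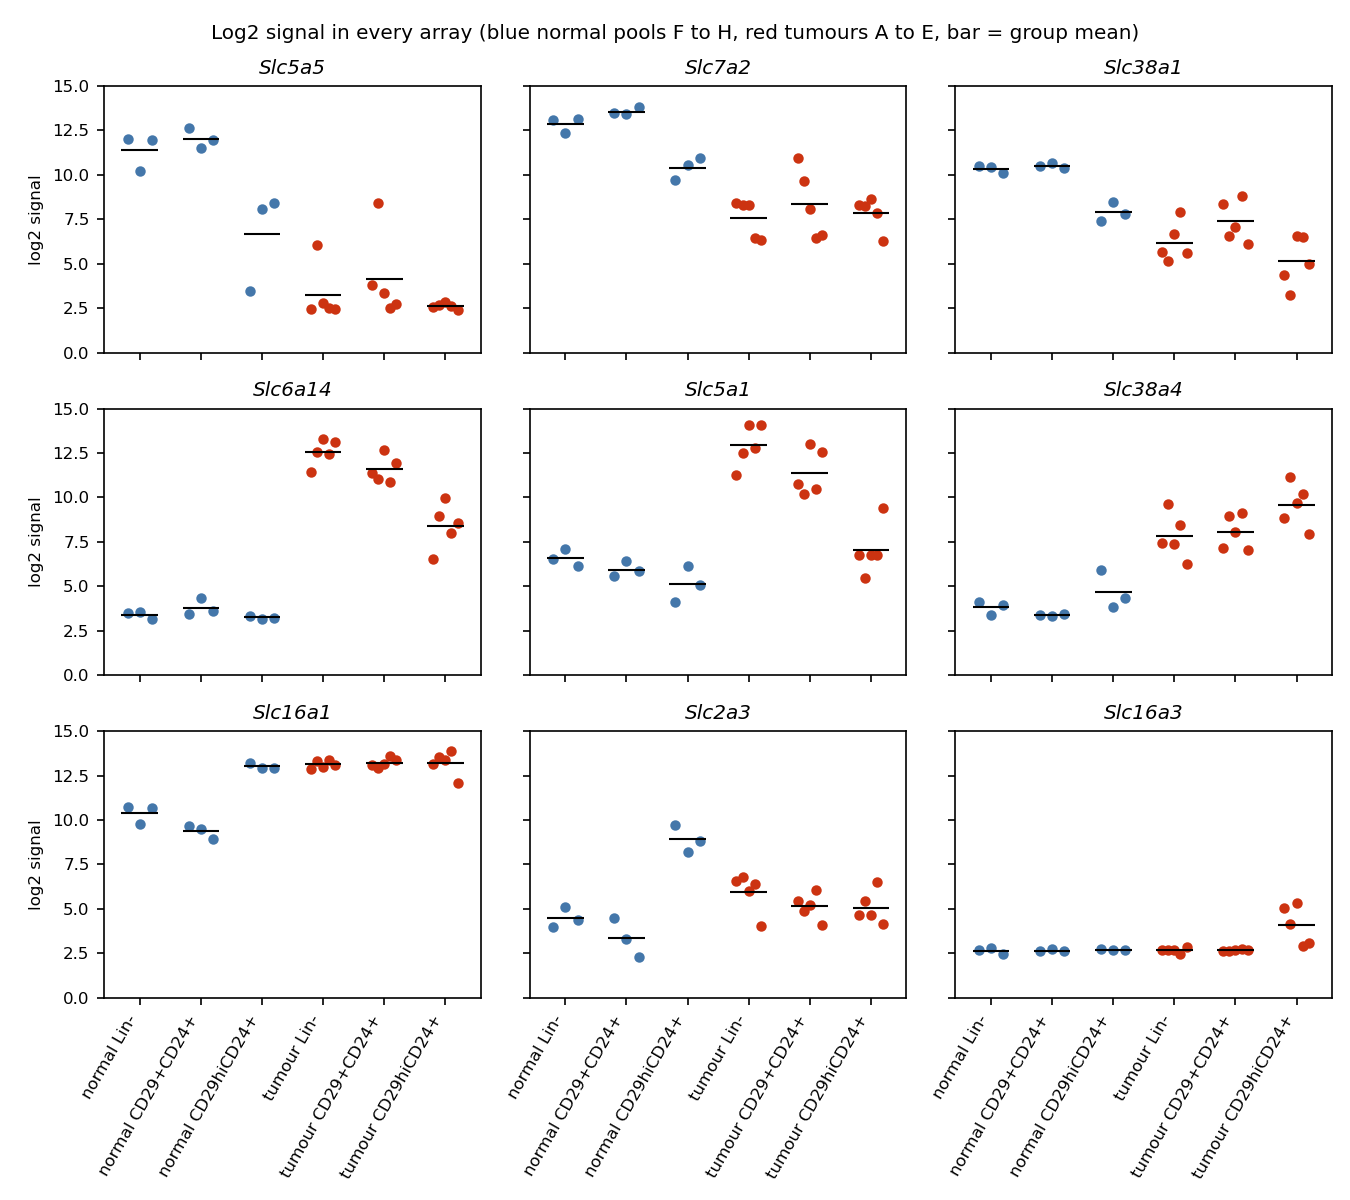
Log2 signal of 9 members in each array (points), by population, for tumours A to E and pools F to H, with bars at group means. The normal CD29hiCD24+ arrays lay with the tumours for Slc16a1, above them for Slc2a3, and below the other normal arrays for Slc5a5, Slc7a2 and Slc38a1.

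Of the 7 glutamate and neutral amino acid carriers (Slc1a) 4 were tested. In tumour CD29hiCD24+ cells 2 were higher and 2 lower, beside 38.6% of all genes. In tumour CD29+CD24+ cells 1 was higher and 1 lower, beside 43.5%. Slc1a1 was 7.13 to 9.15 in tumours and 3.33 to 4.60 in pools in Lin- cells. In CD29+CD24+ cells Slc1a1 was 7.11 to 9.55 in tumours and 4.39 to 5.09 in pools. In CD29hiCD24+ cells the ranges of 6.25 to 8.85 and 3.12 to 6.49 overlapped, through tumour E and pool F. The differences of Slc1a1 were 4.44 ± 0.67 (adjusted p = 2.01e-05), 3.73 ± 0.67 (adjusted p = 0.000118) and 3.19 ± 0.67 (adjusted p = 0.000759), and the last was 4.08 without the array of pool F. Slc1a3, a glial glutamate carrier, was lower in tumour CD29hiCD24+ cells at -0.93 ± 0.30 (adjusted p = 0.0184), a call that was lost without A (-0.71, adjusted p = 0.0595), D (-0.79, adjusted p = 0.0601), G (-0.81, adjusted p = 0.0994) or H (-0.61, adjusted p = 0.188).

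Slc1a5, or ASCT2, brings glutamine into dividing cells. In CD29hiCD24+ cells Slc1a5 was 7.80, 7.91, 7.38, 8.68 and 7.11 in tumours A to E and 9.87, 9.87 and 9.66 in pools F to H. Slc1a5 in CD29+CD24+ cells was 7.86, 8.27, 7.33, 8.29 and 7.22 in tumours A to E and 6.91, 7.03 and 7.14 in pools F to H. In Lin- cells Slc1a5 was 8.14, 8.04, 8.02, 8.80 and 7.08 in tumours A to E and 7.66, 8.53 and 8.35 in pools F to H. The normal CD29hiCD24+ arrays lay above every tumour array of that gate, and the normal CD29+CD24+ arrays just below those of theirs. The difference was -2.03 ± 0.35 (adjusted p = 0.000112) in CD29hiCD24+ cells, and 0.77 ± 0.35 (adjusted p = 0.0868) in CD29+CD24+ cells was not called but passed with tumour or pool as a random block (0.77, adjusted p = 0.049). Slc1a4, or ASCT1, exchanges serine and alanine and was opposite to it in sign in CD29hiCD24+ cells. In CD29hiCD24+ cells Slc1a4 was 7.95, 7.67, 7.03, 7.18 and 7.47 in tumours A to E and 5.36, 6.48 and 6.18 in pools F to H. Slc1a4 in CD29+CD24+ cells was 7.42, 7.69, 7.06, 7.87 and 7.17 in tumours A to E and 8.92, 9.05 and 7.86 in pools F to H. In Lin- cells Slc1a4 was 7.33, 7.68, 6.80, 7.51 and 6.73 in tumours A to E and 8.76, 9.28 and 7.82 in pools F to H. Tumours were above the pools in CD29hiCD24+ cells, and pool H overlapped with the tumours in CD29+CD24+ cells. The difference was 1.46 ± 0.35 (adjusted p = 0.00243) in CD29hiCD24+ cells, -1.16 ± 0.35 (adjusted p = 0.0105) in CD29+CD24+ cells and -1.41 ± 0.35 (adjusted p = 0.00287) in Lin- cells. The call in CD29+CD24+ cells was lost without F (-1.01, adjusted p = 0.058) or G (-0.94, adjusted p = 0.0548), and that in CD29hiCD24+ cells with the mean of its probe sets (0.70, adjusted p = 0.0642).

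Of the 18 neurotransmitter and amino acid carriers driven by sodium and chloride (Slc6a) 9 were tested. In tumour CD29+CD24+ cells 6 were higher and 0 lower, beside 43.5% of all genes. In Lin- cells the counts were 7 and 0, beside 40.6%, and in CD29hiCD24+ cells 3 and 2, beside 38.6%. Slc6a14, or ATB0,+, takes up nearly all neutral and basic amino acids. In Lin- cells Slc6a14 was 11.44, 12.57, 13.30, 12.43 and 13.13 in tumours A to E and 3.48, 3.57 and 3.15 in pools F to H. Slc6a14 in CD29+CD24+ cells was 11.40, 11.05, 12.68, 10.85 and 11.94 in tumours A to E and 3.42, 4.33 and 3.61 in pools F to H. In CD29hiCD24+ cells Slc6a14 was 6.56, 8.97, 9.95, 8.02 and 8.58 in tumours A to E and 3.35, 3.16 and 3.23 in pools F to H. The lowest tumour array, tumour A in the CD29hiCD24+ gate, lay over 2 units above the highest normal array, and tumours were higher in Lin- and CD29+CD24+ than in CD29hiCD24+ cells. The difference was 9.18 ± 0.55 (adjusted p = 4.16e-11) in Lin- cells, 7.80 ± 0.55 (adjusted p = 2.94e-10) in CD29+CD24+ cells and 5.17 ± 0.55 (adjusted p = 2.99e-07) in CD29hiCD24+ cells. Its second probe set differed by 7.87, 5.62 and 3.86.

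Slc6a15 takes up branched-chain amino acids and proline, mainly in the brain. Slc6a15 in CD29+CD24+ cells was 7.93, 7.25, 6.36, 9.07 and 7.74 in tumours A to E and 2.96, 3.17 and 3.67 in pools F to H. In Lin- cells Slc6a15 was 7.56, 6.78, 4.98, 8.35 and 6.11 in tumours A to E and 3.46, 3.10 and 3.97 in pools F to H. In CD29hiCD24+ cells Slc6a15 was 6.38, 6.81, 5.75, 6.92 and 4.63 in tumours A to E and 7.32, 5.80 and 6.69 in pools F to H. Tumours were above the pools in the first and second of these, while in CD29hiCD24+ cells the groups overlapped. The difference was 4.40 ± 0.66 (adjusted p = 1.29e-05) in CD29+CD24+ cells, 3.25 ± 0.66 (adjusted p = 0.000443) in Lin- cells and -0.51 ± 0.66 (adjusted p = 0.582), not called, in CD29hiCD24+ cells.

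Slc6a8 takes up creatine and Slc6a6 takes up taurine. Slc6a8 in CD29+CD24+ cells was 9.96, 9.84, 9.89, 10.71 and 9.61 in tumours A to E and 8.17, 8.55 and 8.29 in pools F to H. Slc6a8 in CD29hiCD24+ cells was 9.78, 9.61, 9.51, 10.74 and 9.33 in tumours A to E and 10.97, 10.62 and 10.83 in pools F to H. Slc6a8 in Lin- cells was 10.12, 10.13, 10.18, 11.06 and 9.81 in tumours A to E and 8.61, 9.81 and 9.12 in pools F to H. Tumours lay above the pools in CD29+CD24+ cells, and mostly below them in CD29hiCD24+ cells, where tumour D overlapped. The difference was 1.67 ± 0.32 (adjusted p = 0.000208) in CD29+CD24+ cells and -1.02 ± 0.32 (adjusted p = 0.0148) in CD29hiCD24+ cells. The second was turned by the choice of probe set, as the other probe set of Slc6a8 gave 1.18 and the mean of both gave 0.081, adjusted p = 0.781. It was also lost without F (-0.94, adjusted p = 0.0591) or H (-1.0, adjusted p = 0.0612) and without the array of pool F (-0.94, adjusted p = 0.0598). Slc6a6 was higher in tumour CD29+CD24+ cells by 0.95 ± 0.27 (adjusted p = 0.00606) and lower in tumour CD29hiCD24+ cells at -0.93 ± 0.27 (adjusted p = 0.00865), with normal ranges of 8.26 to 9.59 and 10.45 to 10.85. The first call on Slc6a6 was lost without pool H (0.68, adjusted p = 0.0905) and the second with the mean of its probe sets (-0.72, adjusted p = 0.155).

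Of the other Slc6a members, the glycine carrier Slc6a9 was higher in tumours by 1.93 ± 0.38 (adjusted p = 0.000329) in CD29+CD24+ and 2.10 ± 0.38 (adjusted p = 0.000158) in Lin- cells. The dimmer second probe set of Slc6a9 differed by only 0.10 (adjusted p = 0.526) and 0.16 (adjusted p = 0.312), and the mean of both gave 1.01, adjusted p = 0.000737 and 1.13, adjusted p = 0.000314. In CD29hiCD24+ cells Slc6a9 differed by 1.0 ± 0.38 (adjusted p = 0.0448), a call lost without B (1.07, adjusted p = 0.0626), C (0.97, adjusted p = 0.0642), D (0.99, adjusted p = 0.065), E (0.91, adjusted p = 0.0634), F (1.18, adjusted p = 0.0584) or H (0.58, adjusted p = 0.319). The serotonin carrier Slc6a4 had its normal arrays in the low band and passed the filter through 13 tumour arrays alone. It differed by 1.96 ± 0.56 (adjusted p = 0.00828) in CD29hiCD24+ cells, where tumours ran from 3.09 to 5.78. With the block of description numbers it was not called there (1.46, adjusted p = 0.0653), nor in CD29+CD24+ (0.94, adjusted p = 0.239) or Lin- cells (1.02, adjusted p = 0.203). Its call in CD29+CD24+ cells was lost without A (1.41, adjusted p = 0.0712), C (1.32, adjusted p = 0.0938), F (1.36, adjusted p = 0.142), G (1.46, adjusted p = 0.112) or H (1.53, adjusted p = 0.0983), and that in Lin- cells without C (1.33, adjusted p = 0.0938), E (1.46, adjusted p = 0.0536), F (1.54, adjusted p = 0.0993), G (1.52, adjusted p = 0.0984) or H (1.5, adjusted p = 0.11).

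In the Slc7a family (15 members, 11 tested) 3 members were higher and 2 lower in tumour CD29+CD24+ cells, beside 43.5% of all genes. In tumour CD29hiCD24+ cells 0 were higher and 3 lower, beside 38.6%. Slc7a2, or CAT2, takes up arginine and lysine. In Lin- cells Slc7a2 was 8.41, 8.31, 8.30, 6.47 and 6.33 in tumours A to E and 13.06, 12.34 and 13.14 in pools F to H. Slc7a2 in CD29+CD24+ cells was 10.98, 9.64, 8.11, 6.45 and 6.60 in tumours A to E and 13.46, 13.43 and 13.80 in pools F to H. In CD29hiCD24+ cells Slc7a2 was 8.32, 8.26, 8.66, 7.87 and 6.27 in tumours A to E and 9.69, 10.58 and 10.96 in pools F to H. Normal Lin- and CD29+CD24+ arrays were all over 12, and the tumours lay below the pools in each population, with tumour A nearest to them in CD29+CD24+ cells. The difference was -5.21 ± 0.80 (adjusted p = 1.97e-05) in CD29+CD24+ cells, -5.28 ± 0.80 (adjusted p = 2.1e-05) in Lin- cells and -2.53 ± 0.80 (adjusted p = 0.0163) in CD29hiCD24+ cells, lost in the last without G (-2.45, adjusted p = 0.0662) or H (-2.26, adjusted p = 0.0928). Slc7a4 belongs to the same branch by sequence. In Lin- cells Slc7a4 was 2.91, 3.12, 2.75, 2.66 and 2.78 in tumours A to E and 7.85, 5.93 and 7.81 in pools F to H. Slc7a4 in CD29+CD24+ cells was 4.46, 4.53, 2.61, 2.56 and 2.83 in tumours A to E and 8.21, 7.53 and 8.63 in pools F to H. In CD29hiCD24+ cells Slc7a4 was 2.81, 2.88, 2.92, 2.74 and 2.72 in tumours A to E and 2.41, 2.95 and 2.95 in pools F to H. It stood clear of the low band in normal Lin- and CD29+CD24+ arrays, and to a lower level in the CD29+CD24+ arrays of tumours A and B. Its differences were -4.73 ± 0.45 (adjusted p = 2.6e-08) in CD29+CD24+ cells and -4.35 ± 0.45 (adjusted p = 1.28e-07) in Lin- cells.

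Slc7a5, or LAT1, brings leucine and other large neutral amino acids into growing cells. Slc7a5 in CD29+CD24+ cells was 9.96, 9.88, 9.91, 11.08 and 10.45 in tumours A to E and 8.79, 8.16 and 7.37 in pools F to H. In Lin- cells Slc7a5 was 10.29, 10.30, 10.23, 10.79 and 10.24 in tumours A to E and 9.18, 10.16 and 8.66 in pools F to H. In CD29hiCD24+ cells Slc7a5 was 9.90, 10.39, 10.47, 11.32 and 11.04 in tumours A to E and 11.42, 11.62 and 10.89 in pools F to H. Tumours lay above the pools in CD29+CD24+ and Lin- cells and overlapped with them in CD29hiCD24+ cells. The difference was 2.15 ± 0.37 (adjusted p = 6.51e-05) in CD29+CD24+ cells and 1.04 ± 0.37 (adjusted p = 0.028) in Lin- cells, and -0.69 ± 0.37 (adjusted p = 0.15) in CD29hiCD24+ cells was not called. The call in Lin- cells was lost without F (0.96, adjusted p = 0.0902) or H (0.70, adjusted p = 0.167). Its partner Slc3a2, the CD98 heavy chain, differed by 0.84 ± 0.21 (adjusted p = 0.00208) in CD29+CD24+ cells. In CD29hiCD24+ cells Slc3a2 was called lower, at -0.53 ± 0.21 (adjusted p = 0.0448), where Slc7a5 was not called. In Lin- cells, where Slc7a5 was called, Slc3a2 was not, with means of 11.42 in tumours and 11.04 in pools.

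Slc7a6, another partner of Slc3a2 that exchanges arginine for neutral amino acids, was called with opposite signs in both gates. Slc7a6 in CD29+CD24+ cells was 8.37, 8.56, 8.48, 8.85 and 8.81 in tumours A to E and 7.17, 7.56 and 7.6 in pools F to H. In CD29hiCD24+ cells Slc7a6 was 8.47, 8.77, 8.48, 8.81 and 9.08 in tumours A to E and 9.70, 9.55 and 9.93 in pools F to H. In Lin- cells Slc7a6 was 8.42, 8.73, 8.26, 8.49 and 8.04 in tumours A to E and 7.85, 8.57 and 7.79 in pools F to H. Tumours lay from 8.04 to 9.08 in all 3 populations, whereas the pools ran from 7.17 in CD29+CD24+ to 9.93 in CD29hiCD24+ cells, and groups did not overlap in either sorted gate. The differences were 1.17 ± 0.20 (adjusted p = 6.6e-05) and -1.0 ± 0.20 (adjusted p = 0.000452). Slc7a3, a further cationic amino acid carrier, was lower in tumour CD29hiCD24+ cells at -1.89 ± 0.43 (adjusted p = 0.00161). Slc7a11, or xCT, exchanges cystine for glutamate and was called in none of the 8 comparisons, though with tumour or pool as a random block its gate difference was (-1.5, adjusted p = 0.0295). In Lin- cells Slc7a11 was 3.69, 5.90, 4.68, 4.16 and 3.67 in tumours A to E and 3.31, 3.64 and 3.19 in pools F to H. Slc7a11 in CD29+CD24+ cells was 3.69, 3.73, 4.91, 5.69 and 3.70 in tumours A to E and 3.38, 3.32 and 3.42 in pools F to H. In CD29hiCD24+ cells Slc7a11 was 3.39, 3.65, 3.66, 3.44 and 3.60 in tumours A to E and 4.43, 4.25 and 3.57 in pools F to H. Single tumours stood out, B and C in Lin- cells and C and D in CD29+CD24+ cells. The lowest tumour array lay just above the highest pool in these populations, and the groups overlapped in CD29hiCD24+ cells.

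Of the Slc38a carriers (9 members, 7 tested) 2 were higher and 5 lower in tumour CD29+CD24+ cells, beside 43.5% of all genes. In tumour CD29hiCD24+ cells 2 were higher and 1 lower, beside 38.6%. Slc38a1, or SNAT1, takes up glutamine with sodium. In Lin- cells Slc38a1 was 5.66, 5.14, 6.67, 7.90 and 5.61 in tumours A to E and 10.48, 10.45 and 10.12 in pools F to H. Slc38a1 in CD29+CD24+ cells was 8.35, 6.57, 7.09, 8.80 and 6.11 in tumours A to E and 10.49, 10.67 and 10.37 in pools F to H. In CD29hiCD24+ cells Slc38a1 was 4.38, 3.21, 6.54, 6.53 and 4.98 in tumours A to E and 7.41, 8.50 and 7.82 in pools F to H. Every tumour array was below every normal array of its population, and tumours spread more than pools. The difference was -4.16 ± 0.71 (adjusted p = 8.09e-05), -3.12 ± 0.71 (adjusted p = 0.00118) and -2.78 ± 0.71 (adjusted p = 0.00388) in this order. The other probe set of Slc38a1 gave -2.36, -2.46 and -0.53, the last not called (adjusted p = 0.147), and the mean of both in CD29hiCD24+ cells was smaller (-1.65, adjusted p = 0.00435). Slc38a2, or SNAT2, takes up the same amino acids and responds to amino acid shortage. In Lin- cells Slc38a2 was 14.14, 14.05, 14.03, 14.48 and 14.04 in tumours A to E and 13.55, 13.71 and 13.53 in pools F to H. Slc38a2 in CD29+CD24+ cells was 14.14, 13.99, 13.97, 14.53 and 14.19 in tumours A to E and 13.43, 13.59 and 13.10 in pools F to H. In CD29hiCD24+ cells Slc38a2 was 14.15, 13.98, 13.91, 14.51 and 13.78 in tumours A to E and 14.32, 14.23 and 13.98 in pools F to H. Tumours were higher in the first and second of these by 0.55 ± 0.16 (adjusted p = 0.00806) and 0.79 ± 0.16 (adjusted p = 0.000341), without overlap, and in CD29hiCD24+ cells the groups overlapped.

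Slc38a4, or SNAT4, a carrier of neutral amino acids known from liver and placenta, was higher in tumours in each population. It was 7.94 to 11.12 in tumours and 3.82 to 5.89 in pools in CD29hiCD24+ cells. It was 7.06 to 9.10 and 3.33 to 3.46 in CD29+CD24+ cells, and 6.28 to 9.61 and 3.38 to 4.14 in Lin- cells. The differences of Slc38a4 were 4.88 ± 0.71 (adjusted p = 1.44e-05), 4.67 ± 0.71 (adjusted p = 1.49e-05) and 4.01 ± 0.71 (adjusted p = 0.000105), and tumour B was the highest tumour in Lin- and CD29hiCD24+ cells.

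Slc38a6 fell in the tumours where normal cells were high. Slc38a6 in Lin- cells was 5.16, 5.18, 4.84, 5.41 and 4.88 in tumours A to E and 8.40, 8.73 and 8.82 in pools F to H. Slc38a6 in CD29+CD24+ cells was 6.25, 5.01, 4.74, 5.08 and 4.89 in tumours A to E and 8.05, 9.01 and 8.27 in pools F to H. Slc38a6 in CD29hiCD24+ cells was 5.26, 4.86, 4.65, 5.66 and 5.10 in tumours A to E and 4.93, 6.39 and 5.59 in pools F to H. The first and second had no overlap, and in the CD29hiCD24+ gate the groups overlapped. The differences were -3.56 ± 0.34 (adjusted p = 4.97e-08) in Lin- and -3.25 ± 0.34 (adjusted p = 1.23e-07) in CD29+CD24+ cells. Slc38a7 carries glutamine out of lysosomes. Slc38a7 in CD29+CD24+ cells was 4.89, 4.62, 4.47, 4.22 and 4.61 in tumours A to E and 6.46, 5.55 and 5.89 in pools F to H. Slc38a7 in CD29hiCD24+ cells was 5.42, 4.62, 4.64, 4.46 and 6.0 in tumours A to E and 3.82, 4.13 and 3.92 in pools F to H. Slc38a7 in Lin- cells was 4.43, 4.21, 4.23, 4.22 and 4.55 in tumours A to E and 5.55, 4.68 and 4.53 in pools F to H. Tumours were lower in CD29+CD24+ cells and higher in CD29hiCD24+ cells, at -1.41 ± 0.30 (adjusted p = 0.000657) and 1.07 ± 0.30 (adjusted p = 0.00736). The lysosomal arginine sensor Slc38a9 and the carrier Slc38a10 were lower in tumour CD29+CD24+ cells, at -1.48 ± 0.34 (adjusted p = 0.00122) and -1.52 ± 0.24 (adjusted p = 3.07e-05).

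Slc43a3, which carries purine nucleobases, had the lowest difference of any member in CD29hiCD24+ cells, -4.85 ± 0.67 (adjusted p = 8.72e-06), with tumours at 2.33 to 5.0 and pools at 7.75 to 8.78. With the pool F array left out it was -4.63. In CD29+CD24+ cells Slc43a3 lay at 2.17 to 3.90 in tumours and 2.13 to 2.70 in pools and was not called. The branched-chain amino acid carrier Slc43a2 was called in no comparison.

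The second aim was to compare the stem cell gate with its more differentiated counterpart in each tissue. In normal glands, CD29hiCD24+ and CD29+CD24+ cells differed in 30 of the 62 members, 20 higher and 10 lower in CD29hiCD24+ cells, beside 46.6% of all genes (21.3% higher and 25.3% lower), and 37 members did not overlap, beside 58.2%. This comparison shares its CD29hiCD24+ arrays with that of tumour and normal cells above. By family the calls higher and lower were 5 and 0 in Slc2a, 4 and 2 in Slc7a, 3 and 0 in Slc6a, 3 and 1 in Slc16a, 2 and 1 in Slc1a, 1 and 2 in Slc5a, 1 and 4 in Slc38a, and 1 and 0 in Slc43a. Highest in the CD29hiCD24+ gate were Slc43a3 at 6.02 ± 0.75 (adjusted p = 1.39e-06), Slc2a13 at 5.75 ± 0.43 (adjusted p = 1.09e-09) and Slc2a3 at 5.56 ± 0.70 (adjusted p = 1.7e-06). Next came the lactate carriers Slc16a1 at 3.68 ± 0.33 (adjusted p = 1.45e-08) and Slc16a7 at 3.56 ± 0.34 (adjusted p = 3.39e-08) and the amino acid carrier Slc6a15 at 3.34 ± 0.73 (adjusted p = 0.000784). The endothelial mean was 3.63 ± 0.10 (SD, n = 3) in normal CD29+CD24+ arrays against 7.92 ± 1.45 (SD, n = 3) in normal CD29hiCD24+ arrays, and 7 of 9 endothelial markers were called higher there. Its part was not tested. Without the pool F array the differences were 5.80 for Slc43a3, 5.61 for Slc2a13, 5.16 for Slc2a3, 3.71 for Slc16a7 and 3.59 for Slc16a1, and 27 members were called, 19 higher and 8 lower. The share of all genes called in this setting is not given here.

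Slc7a5 differed by 3.20 ± 0.41 (adjusted p = 1.98e-06), Slc1a5 by 2.78 ± 0.39 (adjusted p = 7.12e-06) and Slc2a1 by 1.57 ± 0.23 (adjusted p = 1.03e-05). Slc6a8, Slc7a6, Slc5a3 and Slc6a6 differed by 2.48 ± 0.36, 2.28 ± 0.22, 2.28 ± 0.55 and 1.86 ± 0.30. Lowest in CD29hiCD24+ cells were Slc5a5 at -5.38 ± 1.30 (adjusted p = 0.00179), Slc7a4 at -5.35 ± 0.50 (adjusted p = 2.52e-08) and Slc7a2 at -3.16 ± 0.90 (adjusted p = 0.00636). Slc5a6 at -3.01 ± 0.37 (adjusted p = 1.18e-06), Slc38a6 at -2.81 ± 0.38 (adjusted p = 4.01e-06) and Slc1a4 at -2.60 ± 0.39 (adjusted p = 1.51e-05) followed, and Slc38a1 was at -2.60 ± 0.80 (adjusted p = 0.0104). Leaving out pool F with all its arrays ended the calls of Slc5a5 (-3.49, adjusted p = 0.0684), Slc7a2 (-2.85, adjusted p = 0.0696) and Slc38a1 (-2.36, adjusted p = 0.0926), and leaving out pool H that of Slc38a1 (-2.62, adjusted p = 0.0588). With a covariate for the 3' to 5' difference of actin, 23 members were called, and Slc5a5 (-3.96, adjusted p = 0.0502) and Slc7a2 (-2.01, adjusted p = 0.144) were not. The share of all genes called with this covariate is not given here either.

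In tumours the same comparison of gates called 7 members, 3 higher and 4 lower in CD29hiCD24+ cells, beside 4.19% of all genes (2.25% higher and 1.94% lower), and 6 members did not overlap, beside 5.05%. The share of members was 11.3%. Higher in CD29hiCD24+ cells were 3 monocarboxylate carriers, Slc16a13 by 2.06 ± 0.46 (adjusted p = 0.0147), Slc16a3 by 1.42 ± 0.31 (adjusted p = 0.0137) and Slc16a9 by 0.93 ± 0.24 (adjusted p = 0.0348). Lower were the sodium-coupled sugar carriers Slc5a1, at -4.38 ± 0.68 (adjusted p = 0.00107), and Slc5a9, at -1.72 ± 0.36 (adjusted p = 0.0092), and the amino acid carriers Slc6a14, at -3.17 ± 0.48 (adjusted p = 0.000794), and Slc38a1, at -2.25 ± 0.62 (adjusted p = 0.0423). Arrays of both gates overlapped for Slc16a13, Slc16a9, Slc5a9 and Slc38a1 and did not for Slc5a1, Slc6a14 and Slc16a3. With tumour or pool as a random block the count was 14, 7 higher and 7 lower, and the count over all genes rose as well, as given at the end. The 7 gained were Slc16a6 (1.23), Slc2a1 (0.62), Slc38a4 (1.51) and Slc43a2 (1.58), higher in CD29hiCD24+ cells, and Slc2a9 (-1.08), Slc5a8 (-1.36) and Slc6a15 (-1.57), lower there.

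Some of these calls were lost when 1 tumour or pool was left out, with the sign kept in each case. Slc16a3 lost its call without A (1.18, adjusted p = 0.0781), B (1.39, adjusted p = 0.0732) or C (1.12, adjusted p = 0.0602), and Slc16a13 without A (1.79, adjusted p = 0.0809) or E (1.68, adjusted p = 0.0932). Slc5a9 lost it without C (-1.60, adjusted p = 0.0514). Slc38a1 lost it without A (-1.82, adjusted p = 0.183), B (-1.98, adjusted p = 0.108), E (-2.54, adjusted p = 0.0829), F (-2.25, adjusted p = 0.0702), G (-2.25, adjusted p = 0.0679) or H (-2.25, adjusted p = 0.0801). Slc16a9 lost it without A (0.92, adjusted p = 0.103), B (0.67, adjusted p = 0.141), E (0.81, adjusted p = 0.178), F (0.93, adjusted p = 0.0573), G (0.93, adjusted p = 0.0609) or H (0.93, adjusted p = 0.0656). Pools enter this comparison through the shared estimate of spread alone. Slc5a1 and Slc6a14 kept theirs under all 17 other settings.

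**Figure D4:**
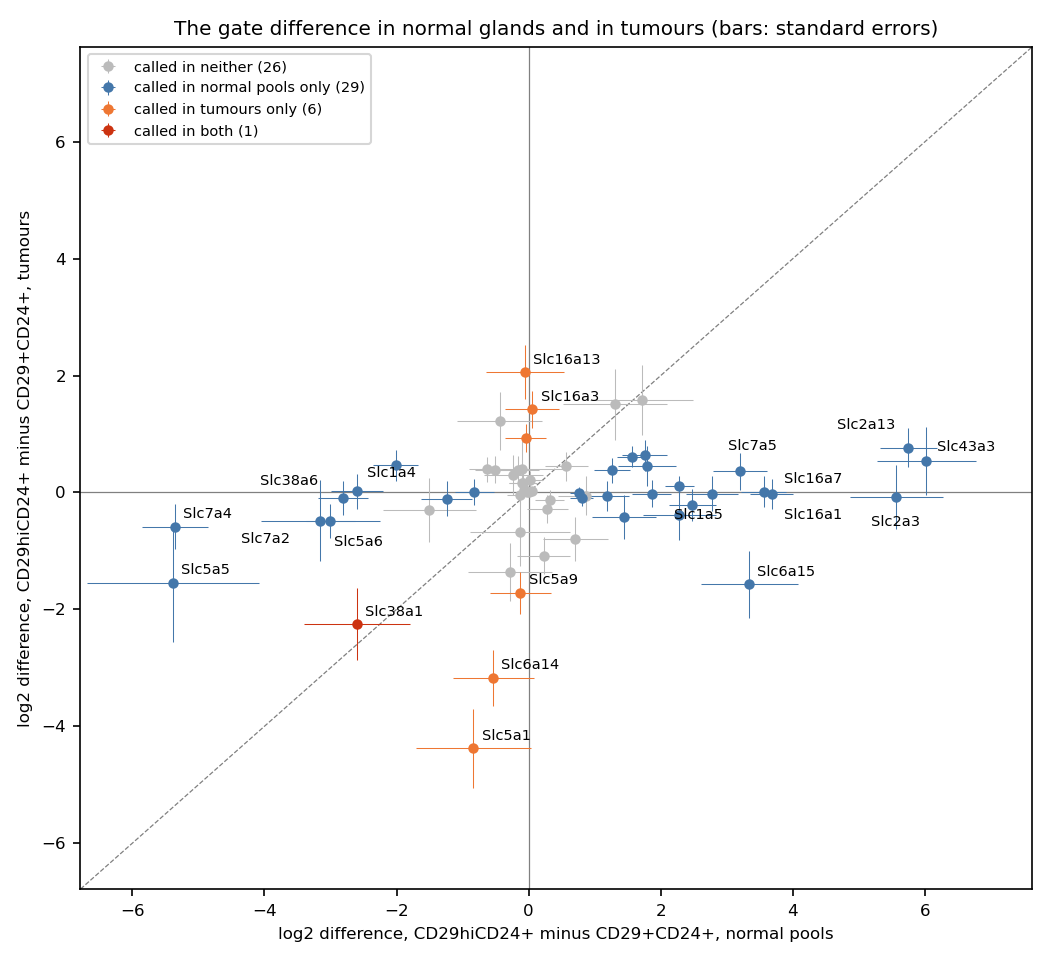
Log2 difference of CD29hiCD24+ minus CD29+CD24+ cells in normal pools (n = 3, horizontal) and in tumours (n = 5, vertical) for the 62 tested members, with standard errors as bars. Of the calls 29 were in normal pools alone, 6 in tumours alone and 1, Slc38a1, in both, so most coloured points lie along the horizontal axis. The calls are from the fit without tumour or pool as a random block, and with it more members were called in tumours.

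The difference between the gate comparisons was tested directly and called 31 members, beside 42.0% of all genes (22.2% higher and 19.8% lower). The gate difference, not the level, was higher in tumours than in normal glands for 8 of the 31 and lower for 23. After quantile normalisation 11 were higher and 19 lower, so the higher share moved from 25.8% to 36.7%, while the median of all genes moved from 0.04 to 0.16. Over all genes called, the higher share moved from 52.9% to 61.8%. Arrays of 1 tumour deviated together, and with tumour or pool as a random block 40 members were called, 15 higher and 25 lower, among them all 31. The share of all genes called with this block is not given here, so the rise is not a result about the members. The 9 gained were Slc2a8 (0.90, adjusted p = 0.00917), Slc5a5 (3.84, adjusted p = 0.0264), Slc7a2 (2.68, adjusted p = 0.0127), Slc16a5 (0.83, adjusted p = 0.0257), Slc16a6 (1.67, adjusted p = 0.0364), Slc16a9 (0.97, adjusted p = 0.0204) and Slc38a9 (1.14, adjusted p = 0.0273), higher, and Slc7a11 and Slc16a10 (-1.34, adjusted p = 0.0132), lower. The lowest were Slc2a3 at -5.64 ± 0.89 (adjusted p = 4.31e-05), Slc43a3 at -5.48 ± 0.95 (adjusted p = 0.000115) and Slc2a13 at -4.98 ± 0.55 (adjusted p = 5.46e-07). Slc6a15 at -4.91 ± 0.93 (adjusted p = 0.000276), Slc16a1 at -3.71 ± 0.42 (adjusted p = 7.28e-07) and Slc16a7 and Slc5a1, each at -3.54, came next. Highest were Slc7a4 at 4.77 ± 0.63 (adjusted p = 5.71e-06), Slc38a6 at 2.72 ± 0.48 (adjusted p = 0.000146) and Slc1a4 at 2.62 ± 0.50 (adjusted p = 0.000288), then Slc5a6 at 2.52 ± 0.47, Slc38a7 at 2.48 ± 0.43 and Slc16a13 at 2.11 ± 0.75. The means show the shape of this for Slc16a1: 9.36 ± 0.39 and 13.04 ± 0.16 (SD, n = 3) in the CD29+CD24+ and CD29hiCD24+ cells of the pools, but 13.23 ± 0.26 and 13.20 ± 0.69 (SD, n = 5) in those of the tumours. The call of Slc5a1 was lost without G (-3.28, adjusted p = 0.0561) or H (-3.50, adjusted p = 0.0563), and that of Slc16a13 without A (1.85, adjusted p = 0.0707), E (1.73, adjusted p = 0.0695), F (2.18, adjusted p = 0.0848), G (2.30, adjusted p = 0.0582) or H (1.85, adjusted p = 0.132). The actin covariate ended both (-3.20, adjusted p = 0.0658 and 2.31, adjusted p = 0.0511).

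Against all Lin- cells the gate gave a like picture, from the same CD29hiCD24+ arrays. In normal glands 28 members were called, 18 higher and 10 lower, beside 40.2% of all genes (17.0% higher and 23.2% lower), and 31 did not overlap, beside 48.9%. Slc2a3 (4.42 ± 0.70, adjusted p = 4.78e-05), Slc2a13 (3.61 ± 0.43, adjusted p = 2.13e-06) and Slc6a15 (3.09 ± 0.73, adjusted p = 0.00206) were the highest. Slc16a1, Slc16a7 and Slc7a5 followed at 2.66 ± 0.33, 2.5 ± 0.34 and 1.98 ± 0.41. Slc5a5 (-4.74 ± 1.30, adjusted p = 0.00613), Slc7a4 (-4.43 ± 0.50, adjusted p = 9.79e-07) and Slc38a6 (-3.02 ± 0.38, adjusted p = 3.83e-06) were the lowest, and Slc5a5 was not called without pool F (-2.83, adjusted p = 0.164) or its CD29hiCD24+ array (-3.15, adjusted p = 0.0606). Next were Slc1a4 at -2.62 ± 0.39, Slc5a6 at -2.45 ± 0.37 and Slc38a1 at -2.44 ± 0.80, not called without pool F (-2.13, adjusted p = 0.15), G (-2.69, adjusted p = 0.0531) or H (-2.51, adjusted p = 0.0822). In tumours 8 were called, 4 higher and 4 lower, beside 8.36% (3.74% higher and 4.63% lower), and 7 did not overlap, beside 6.64%. Slc16a13 (2.34 ± 0.46, adjusted p = 0.00299), Slc16a3 (1.42 ± 0.31, adjusted p = 0.00688), Slc16a9 (0.89 ± 0.24, adjusted p = 0.0252) and Slc2a1 (0.67 ± 0.18, adjusted p = 0.0219) were higher in CD29hiCD24+ cells. Slc5a1 (-5.92 ± 0.68, adjusted p = 1.32e-05), Slc6a14 (-4.16 ± 0.48, adjusted p = 1.32e-05), Slc5a9 (-3.10 ± 0.36, adjusted p = 1.33e-05) and Slc5a8 (-2.52 ± 0.49, adjusted p = 0.00278) were lower. The call of Slc2a1 was lost without A (0.58, adjusted p = 0.078), D (0.64, adjusted p = 0.0791) or E (0.64, adjusted p = 0.115), and that of Slc16a9 without A (0.88, adjusted p = 0.072), B (0.68, adjusted p = 0.0882) or E (0.76, adjusted p = 0.163).

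Proteins that the carriers work with were read from lists chosen with earlier results of these data known. Of 7 partner subunits 5 were tested. Embigin (Emb), which brings Slc16a carriers to the membrane, was 2.02 ± 0.013 in normal CD29+CD24+ and 10.48 ± 0.43 in normal CD29hiCD24+ cells (SD, n = 3). In the tumours Emb was 10.94 ± 0.20 and 11.46 ± 0.44 (SD, n = 5). Its tumour difference was 8.92 ± 0.25 (adjusted p = 4.24e-16) in CD29+CD24+ cells and 0.97 ± 0.25 (adjusted p = 0.00441) in CD29hiCD24+ cells, and the gates differed by 8.46 ± 0.28 (adjusted p = 4.81e-15) in normal glands. Basigin (Bsg), the partner of Slc16a1 and Slc16a3, was lower in tumour CD29+CD24+ cells at -1.58 ± 0.38 (adjusted p = 0.00194) and in normal CD29hiCD24+ against CD29+CD24+ cells at -1.74 ± 0.43 (adjusted p = 0.00203). Slc3a2 was higher in normal CD29hiCD24+ than in CD29+CD24+ cells by 1.55 ± 0.23 (adjusted p = 1.24e-05).

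Among 16 of 19 glycolysis genes, 10 were higher and 2 lower in tumour CD29hiCD24+ cells, with a median of 0.79 against -0.01 for all genes, of which 15.6% were higher and 22.9% lower. In tumour CD29+CD24+ cells 6 were higher and 4 lower, with a median of -0.04, beside 16.4% and 27.1% of all genes. The hexokinase Hk2 differed by 2.54 ± 0.18 (adjusted p = 5.79e-10) and 1.94 ± 0.18 (adjusted p = 1.52e-08) in these gates, and the pyruvate dehydrogenase kinase Pdk1 by 2.46 ± 0.19 (adjusted p = 2.27e-09) and 0.59 ± 0.19 (adjusted p = 0.014). Ldhb, a lactate dehydrogenase subunit, was higher in tumour CD29+CD24+ cells by 3.69 ± 0.31 (adjusted p = 4.99e-09) and lower in tumour CD29hiCD24+ cells at -1.30 ± 0.31 (adjusted p = 0.00238), which is the sign pattern of Slc2a3. Of 9 hypoxia genes 5 were higher and 0 lower in tumour CD29hiCD24+ cells, beside 15.6% and 22.9% of all genes. In tumour CD29hiCD24+ against CD29+CD24+ cells 5 were higher and 0 lower, beside 2.25% and 1.94%. Between the same gates of normal glands 6 were higher and 1 lower, beside 21.3% and 25.3%. The test of the gate difference between tissues called 3 higher and 2 lower, beside 22.2% and 19.8%. The carbonic anhydrase Car9 differed by 4.04 ± 0.51 (adjusted p = 0.000156) between the tumour gates, and Ndufa4l2 by 4.09 ± 0.64 (adjusted p = 0.00114).

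Of 20 genes of the amino acid stress response driven by ATF4, 8 were higher and 0 lower in tumour CD29+CD24+ cells, with a median of 0.63. Of all genes 43.5% were called there, so the share called in either direction is near the background, while 16.4% were higher and 27.1% lower. In tumour CD29hiCD24+ cells 2 were higher and 3 lower, with a median of 0.10, beside 38.6% of all genes. In normal glands 11 were higher and 2 lower in CD29hiCD24+ against CD29+CD24+ cells, with a median of 1.02, beside 46.6% of all genes. The cystathionine lyase Cth differed by 4.86 ± 0.34 (adjusted p = 3.14e-10) and 4.75 ± 0.38 (adjusted p = 3.07e-09) in the first and last of these. Of 5 tested genes of glutamine metabolism, 0 were higher and 2 lower in tumour CD29+CD24+ cells, beside 43.5% of all genes. The transaminase Got1 was at -5.24 ± 0.87 (adjusted p = 4.79e-05). Of 4 regulators of glucose uptake 1 was higher and 1 lower in tumour CD29hiCD24+ cells, beside 38.6% of all genes. Txnip, an inhibitor of glucose uptake, was the lower at -1.32 ± 0.39 (adjusted p = 0.0105). Tbc1d1 was the higher, with means of 7.74 in tumours and 7.15 in pools.

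Likeness of pattern was taken as Pearson's r of the 6 group means, which share arrays and are few. For Slc2a1 the members most alike were Slc7a5 (r = 0.930), Slc7a6 (0.917), Slc16a10 (0.916), Slc7a1 (0.888) and Slc7a8 (0.885). For Slc7a5 they were Slc7a1 (0.976), Slc6a8 (0.967), Slc16a10 (0.959), Slc7a6 (0.941) and Slc38a2 (0.935). These genes shared an order of group means with normal CD29+CD24+ cells at or near the bottom and normal CD29hiCD24+ cells at or near the top.

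Several probe sets were kept for 30 of the tested members. In the comparison of tumour and normal CD29hiCD24+ cells 15 of these 30 were called by some of their probe sets and not by others, in CD29+CD24+ cells 13 and in Lin- cells 10. Slc6a8 in CD29hiCD24+ cells was called in both directions, and no other member was in any comparison.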

How the data were processed

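The authors deposited 1 log2 signal for each probe set and array, which they had corrected for background and normalised. The submitters' processing notes name RMA, GCRMA and Partek, with no role, order or version. That the scale is log2 was taken from its range, 0.49 to 16.06. In each array 37.2% to 41.6% of the probe sets were at or under 2.83. For arrays, their number limits the precision.

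Of 45101 probe sets, 932 with several gene names, 9160 with none and 64 controls were left out. Where a gene had several kept probe sets, the one with the highest mean was used. All 87 member identifiers matched the reference annotation. Group means for the 6 groups were fitted over the 24 arrays in limma (version 3.58.1, R 4.3.3), with eBayes and a trend of variance on mean signal, and 8 contrasts, with Benjamini-Hochberg adjustment over 13485 genes. On simulated data of the real genes, the test of tumour against normal CD29hiCD24+ cells recovered 37 of 100 genes with a true change of 1 unit and 83 of 100 with a change of 2. The test of the gate difference between tissues found 18 and 66. In the simulation only these genes were changed and all arrays were independent. In the data 38.6% of genes were called between tumour and normal CD29hiCD24+ cells, and arrays of 1 tumour deviated together. The rates therefore hold for the simulated setting and not for the tests reported.

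Tumour and pool letters, taken from the titles, pair the populations. Deviations from group means correlated with a median r of 0.578 over 15 pairs of arrays of 1 tumour, the lowest being 0.359, against -0.167 over 60 pairs of different tumours. Over 9 pairs of 1 pool the median was 0.142, from -0.04 to 0.32. The letter as a random block was an alternative.

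Members, lists and promoter motifs were chosen with earlier results of these data known. Named in each contrast were the called members with the 6 highest and 6 lowest differences. Values in every array were given for members called in at least 4 of the 8 contrasts with a difference over 2 in at least 1 of them, and for a list of well-known carriers. Members drawn in the plots and the 5 promoters were chosen after values were seen. Alternatives were quantile normalisation, no low-value filter, no variance trend, the mean of a gene's probe sets, only the groups compared in the fit, the replicate block, a block of description-number ranges, an actin covariate, each tumour or pool left out, and the normal CD29hiCD24+ array of pool F left out.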

Additional observations from a re-analysis of the deposited data

Results flagged for a closer look

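In groups of 5 tumour arrays, 1 array can stand far from the other 4 by Dixon's criterion (gap over range above 0.71), which chance meets about 1 time in 20. Of 87 such groups, over 29 members and 3 populations, 10 met it. In Lin- cells tumour E was low for Slc2a3 (4.04, the nearest at 6.0) and Slc2a9 (3.88, the nearest at 4.92) and high for Slc5a9 (8.48, the nearest at 7.81). Tumour B was high for the iodide carrier Slc5a5 in Lin- cells (6.07, the nearest at 2.79) and in CD29+CD24+ cells (8.40, the nearest at 3.80). Tumour C was high in Lin- cells for Slc5a8 (9.40, the nearest at 8.51) and Slc16a7 (3.53, the nearest at 2.90). Tumour D was high in Lin- cells for Slc7a5 (10.79, the nearest at 10.30) and Slc38a2 (14.48, the nearest at 14.14). Tumour A was high in CD29+CD24+ cells for Slc38a6 (6.25, the nearest at 5.08).

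The difference between CD29hiCD24+ and CD29+CD24+ cells itself differed between tumours and normal glands for 25 of the members whose arrays were listed or that were named, by the test of that difference. Higher and lower here refer to this gate difference and not to the level in tumours. Slc5a1, Slc5a9, Slc2a9 and Slc6a14, with a lower gate difference, were called higher in tumour CD29+CD24+ cells. For the sodium-coupled and facilitative sugar and inositol carriers the gate difference was lower in tumours, Slc2a3 at -5.64, Slc2a13 at -4.98, Slc5a1 at -3.54, Slc5a3 at -2.67, Slc5a9 at -1.59, Slc2a9 at -1.31, Slc2a1 at -0.95 and Slc2a4 at -0.88. The lactate carriers Slc16a1 (-3.71) and Slc16a7 (-3.54) were lower, and Slc16a3 (1.37) and Slc16a13 (2.11) were higher. Of the amino acid, creatine and nucleobase carriers, Slc43a3 (-5.48), Slc6a15 (-4.91), Slc7a5 (-2.84), Slc1a5 (-2.79), Slc6a8 (-2.69), Slc6a14 (-2.63), Slc7a6 (-2.17) and Slc38a2 (-0.90) were lower. Slc7a4 (4.77), Slc38a6 (2.72), Slc1a4 (2.62), Slc5a6 (2.52) and Slc38a7 (2.48) were higher. All 25 rest on the 3 normal arrays of each gate, and 17 of them were called under all 17 other settings. The other 8 were not. Slc2a9 lost its call in 11 settings, those without A, C, D, F, G or H among them (highest adjusted p = 0.226). Slc2a4 lost it in 10, those without A, B, C, D, F or G among them (highest adjusted p = 0.301). Slc5a9 lost it in 9, those without C, E, F, G or H among them (highest adjusted p = 0.128), and Slc2a1 with the mean of probe sets (-0.60, adjusted p = 0.0866) and the actin covariate (-0.57, adjusted p = 0.153). Losses of Slc5a1 and Slc16a13 are given with the comparison. Slc6a14 was not called without pool F (-2.39, adjusted p = 0.0639), nor Slc16a3 without A (1.13, adjusted p = 0.089), B (1.34, adjusted p = 0.0788), C (1.07, adjusted p = 0.0764), F (1.39, adjusted p = 0.107), G (1.32, adjusted p = 0.111) or H (1.39, adjusted p = 0.101).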

How the results depend on the processing

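Member counts of the 3 tumour comparisons, the normal gate comparison and the gate difference stayed within 1.5 times the reported ones under the 17 alternatives. Leaving out 1 tumour or pool gave 26 to 31 of 33 in CD29hiCD24+, 26 to 32 of 30 in CD29+CD24+ and 23 to 28 of 28 in Lin- cells, 25 to 32 of 30 between normal gates and 23 to 31 of 31 for the gate difference. The same members kept their calls under all 17 in 16 of 33, 23 of 30, 17 of 28, 22 of 30 and 19 of 31 cases. Between tumour gates the 7 calls became 14 with the replicate block and 2 with only the groups compared, and 3 (without A) to 7 (without D) with 1 tumour or pool left out. For CD29hiCD24+ against Lin- cells of tumours the 8 calls became 14 with the replicate block and 5 with only the groups compared, and 6 to 8 with 1 left out. For the same in normal glands the 28 calls became 20 without the array of pool F, and 16 (without F) to 29 with 1 left out. With the replicate block, Slc16a11 in Lin- cells lost its call (adjusted p = 0.0556). Reversed were Slc6a8 in CD29hiCD24+ cells of tumours, 0.081 with the mean of probe sets, and Slc16a4 in normal CD29hiCD24+ against Lin- cells, -0.67 without replicate H and 0.74 without replicate F. The cause was not tested. Of all genes, 565 were called between tumour gates, 1817 with the replicate block, 1263 with the block of description-number ranges, 149 with only the groups compared, and 207 to 371 without A, B, C, E or H. For CD29hiCD24+ against Lin- cells the 1128 of tumours became 2400, 1876 and 465 in these settings and 469 to 745 without B, C or E, and the 5420 of normal glands became 3491 without F. With the block of description numbers, tumour against normal rests on tumour E, whose numbers alone fall among those of the pools. Differences near the low band are compressed, and 3 normal pools limit every comparison with them.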
